A study of Homo sapiens with 6 samples.

Results

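The human ZNF genes are named for the zinc finger, and 118 of them that gave a clear signal on these arrays are described here as a family. They were chosen by symbol and by brightness. A probe set had to map to 1 human gene whose symbol is ZNF followed by a number, the brightest probe set stood for its gene, and the gene was kept when the mean of its log2 intensity over the 6 arrays was above that of 150 intensity units. The array reads 491 ZNF genes, 351 of which passed the filter on dim signal among the 12198 genes tested, and 118 of these passed the stricter level. The mean level of the members ran from 153 to 2414 intensity units with a median of 273. ZNF45 (153), ZNF136 (154) and ZNF346 (155) lay just inside the threshold, and ZNF232 (147), ZNF101 (147) and ZNF726 (144) just outside it. The group mean was below 150 in at least 1 group for 22 members and in all groups for 0. These 22 passed through the groups in which they were bright. Probe sets of different genes hybridise differently, so these levels do not order the genes by abundance. ZNF271P, a pseudogene, is among the members.

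The cells were P493-6, a human B-cell line that carries a c-Myc transgene shut off by tetracycline. All 3 groups are this 1 line with this transgene, grown in the same medium. Low-Myc cells had c-Myc released for 0 h, mid-Myc cells for 1 h and high-Myc cells for 24 h, and each group had 2 arrays. For the mid-Myc cells, the growth field of the labels gives 0 h and the treatment field 1 h, and the latter is used below. The design text speaks of biological duplicates, without saying that they came from separate cultures, so the p-values measure the spread between these samples, which may be technical.

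Most ZNF proteins carry a row of C2H2 zinc fingers, small loops folded around a zinc ion that read DNA bases. Many also carry a KRAB domain, which binds the corepressor TRIM28 and through it brings the histone methyltransferase SETDB1 to silence transposable elements and genes. KRAB zinc finger genes arose by repeated duplication and lie in clusters, above all on chromosome 19. A minority of genes with ZNF symbols have other work, in ribosome maturation, RNA binding, the mitotic spindle or chromatin complexes. c-Myc is a transcription factor that binds E-boxes, with CACGTG as the best-known form, and drives growth and division.

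Every comparison was made in 2 ways. ERCC RNAs are synthetic RNAs that were added by cell number, and the per-cell scale is what remains of an array after a curve through their 100 probe sets is subtracted. The equal-median scale sets the human probe sets of all arrays to a common median, so that a gene is compared with the other genes of the same array. The median deposited intensity of the ERCC probe sets was 74.3 to 83 on the low-Myc arrays, 60 to 61.6 on the mid-Myc arrays and between 37.2 and 37.9 for high-Myc. After the curve was subtracted, the 27 ERCC probe sets within the brightness range of the members kept a median difference of -0.14 log2 (SD 0.20) at 24 h and -0.028 (SD 0.15) at 1 h, which is an error to read beside each per-cell value. Differences are log2 values with the SE of 1 limma fit over all 6 arrays, and a gene was called higher or lower at a Benjamini-Hochberg adjusted p below 0.05 over the 12198 genes. With 2 arrays in each of 2 groups, the smallest p that exact permutation allows is 0.333. In these bulk samples, fewer cells of a kind and less RNA per cell cannot be told apart. Of 10 B cell markers, 8 were above 150 intensity units, among them MS4A1, CD79A, CD79B and PAX5. All 10 T and NK cell markers were at 58.6 or below. Of 9 myeloid markers, 2 were above 150, LYZ at 836 and ITGAM at 1141. At 24 h against 0 h and equal medians, 7 of the 8 B cell markers tested and 3 of the 4 myeloid markers tested were called lower. Their medians were -0.791 and -1.26, and 26% of all genes were lower. Per cell, 5 of the 8 B cell markers were higher and 1 lower, with a median of 0.277. Of the 4 myeloid markers, 0 were higher and 2 lower per cell, with a median of -0.18. The part of these markers in the results below was not tested. The 3 comparisons share arrays, so their values are set side by side and no relation between them is drawn.

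The promoters of 4 genes are shown because they mark extremes among the 118 members. ZNF367 and ZNF593 had the largest rises at 24 h, ZNF84 the largest rise from 1 h to 24 h. ZNF429 had the largest fall at 1 h. At equal medians, the 233 ZNF genes tested below the level threshold ran from -1.46 to 2.34 at 24 h against 0 h. They ran from -1.79 to 2.39 at 24 h against 1 h and from -0.924 to 1.39 at 1 h. ZNF101 and ZNF232, just outside the threshold, had the -1.79 and the 2.39. At 24 h against 0 h ZNF232 was at 1.93. Each promoter shown is the 250 bases before the RefSeq gene start (build GRCh38.p14), on the strand of the gene, 5′ to 3′. They lie at chr9:96418371-96418620 (minus strand) for ZNF367, chr1:26169658-26169907 (plus strand) for ZNF593, chr12:133037259-133037508 (plus strand) for ZNF84 and chr19:21505352-21505601 (plus strand) for ZNF429. Capitals mark E-box matches (CACGTG) and matches to 4 forms of the E2F site (TTTCCCGC, TTTGGCGC, TTTCGCGC and TTTGCCGC), searched on both strands.
ZNF367: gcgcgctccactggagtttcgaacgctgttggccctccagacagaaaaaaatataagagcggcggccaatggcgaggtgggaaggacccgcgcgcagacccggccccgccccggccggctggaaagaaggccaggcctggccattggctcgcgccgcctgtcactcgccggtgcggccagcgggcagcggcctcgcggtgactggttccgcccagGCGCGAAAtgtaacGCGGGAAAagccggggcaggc
ZNF593: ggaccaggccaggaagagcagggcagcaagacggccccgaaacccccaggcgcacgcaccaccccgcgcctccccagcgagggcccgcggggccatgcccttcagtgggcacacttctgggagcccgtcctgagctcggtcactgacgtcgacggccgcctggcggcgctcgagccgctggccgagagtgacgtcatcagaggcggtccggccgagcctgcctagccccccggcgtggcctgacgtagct
ZNF84: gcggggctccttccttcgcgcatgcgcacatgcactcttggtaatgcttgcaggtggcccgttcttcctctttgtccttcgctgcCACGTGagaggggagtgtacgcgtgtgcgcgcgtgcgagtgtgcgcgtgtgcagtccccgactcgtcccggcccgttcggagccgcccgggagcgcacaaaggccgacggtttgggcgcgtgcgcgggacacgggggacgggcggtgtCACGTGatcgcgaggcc
ZNF429: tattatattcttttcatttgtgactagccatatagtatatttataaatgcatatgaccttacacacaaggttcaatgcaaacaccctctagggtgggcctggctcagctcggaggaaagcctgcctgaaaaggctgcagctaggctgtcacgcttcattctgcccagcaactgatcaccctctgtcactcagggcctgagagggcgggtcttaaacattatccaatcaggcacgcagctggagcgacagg
The ZNF367 window held 2 E2F matches, which begin 35 and 21 bases before the start, and 0 E-boxes. The ZNF84 window held 2 E-boxes, 165 and 17 bases before the start. The windows of ZNF593 and ZNF429 held neither motif. The ZNF429 window had 5 CpG dinucleotides and 48.8% GC, against medians of 19 CpG and 63.8% GC over the 106 members with a promoter in the RefSeq table. E-boxes lay in the windows of 5 of these 106 members (4.72%), against 10.3% of 5113 other genes of the same brightness and 6.49% of all 27303 promoters. E2F matches lay in 5 members (4.72%), against 5.01% and 2.79%. The short motif CCAAT was in 41.5% of members, against 36.1% and 33%. A match describes the letters of this window and is not evidence of binding.

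Cells at 24 h carried more ZNF RNA per cell, and about as many ZNF genes lay above as below the rest of the array. Per cell, 113 of the 118 members were higher at 24 h than at 0 h, 2 were lower and 3 were not called, with a median difference of 1.13 log2, or 2.19-fold. Among all genes tested 91% were called higher and 2.47% lower, and among 6021 non-ZNF genes of the same brightness 93.4% and 3.11%, with a median of 1.25. These 6021 span the members' range without weights and lean to its bright end. Between 443 and 2414 intensity units there were 2628 of them and 24 members, and between 150 and 175 there were 498 and 24. On the equal-median scale 46 members were higher, 42 lower and 30 not called, with a median of 0.063. The background was 37.7% higher and 26% lower over all genes, and 49% and 32.4% over genes of the same brightness, whose median was 0.15, against 39% and 35.6% of members. The split of the members moved with the centring, to 35 higher and 54 lower under quantile normalization and to 34 and 56 when arrays were centred on the tested genes, where genes of the same brightness split 39.2% to 44.8% and 39.4% to 44.8%. These scalings moved the median of all genes tested from 0.054 to -0.039 and -0.15. Of the 42 members that were lower at equal medians, 37 were higher per cell, 3 were not called, and ZNF791 and ZNF490 were lower on both scales.

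The 118 members covered a smaller range of differences at 24 h than the 6021 other genes. On the equal-median scale, the SD of the differences was 0.60 over the 118 members and 0.83 over the 6021 others, and the interquartile range was 0.77 and 1.02. There were 5 members (4.24%) that rose and 3 (2.54%) that fell by at least 2-fold, against 15.4% and 5.85% of the others. The members ran from -1.38 to 2.05, and the others from -6.88 to 3.44. Within brightness bins, the median member lay 0.106 log2 below the others, and 70 of 118 lay below the median of their bin. The bin between 227 and 307 intensity units went the other way. Its members had a median of 0.324 against 0.202 for the others, and 9 of its 24 members lay below. The brightest bin, with 24 members between 443 and 2414 intensity units, stood lowest, with 62.5% of members called lower against 37% of others and a median of -0.31 against 0.10. On single arrays, the members' median deviation minus that of the others was 0.033 and 0.082 for low-Myc, 0.024 and 0.055 for mid-Myc and -0.062 and -0.069 for high-Myc. Both high-Myc arrays lay below all 4 arrays of the other groups.

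**Figure D1:**
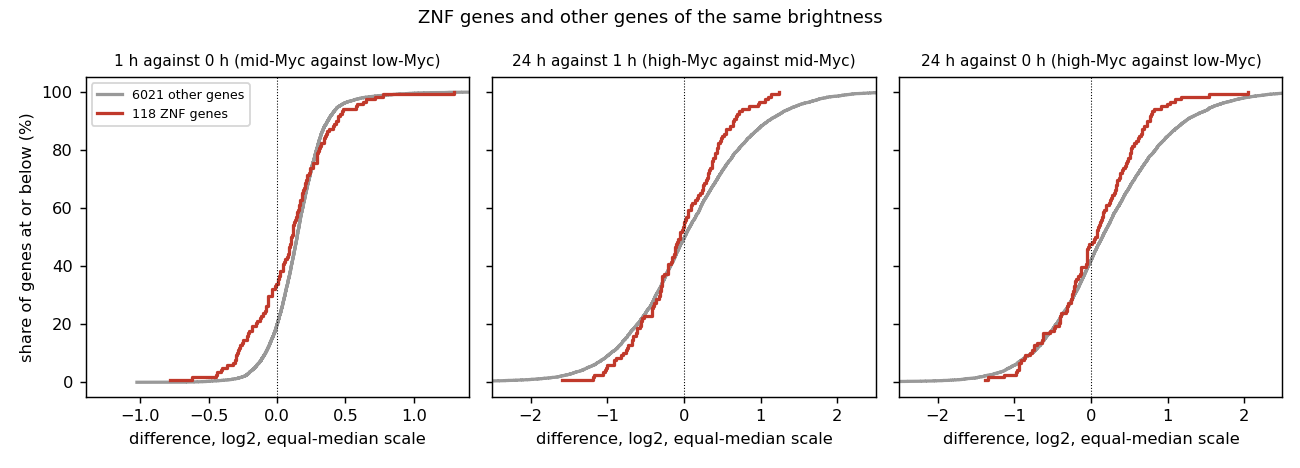
Cumulative share of genes (percent, vertical) against the log2 difference on the equal-median scale (horizontal) for 118 ZNF genes in red and 6021 other genes of the same brightness in grey, for 1 h against 0 h, 24 h against 1 h and 24 h against 0 h. At 1 h the red line is the wider (SD 0.30 against 0.22 log2), and at 24 h against 0 h it is the narrower (SD 0.60 against 0.83).

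ZNF367, a nuclear zinc finger protein, rose most among the members. Its group mean at 0 h was 113, so it passed the level threshold through the later groups. Its intensity was 119 and 107 at 0 h, 237 and 265 at 1 h and 426 and 428 at 24 h. The groups did not overlap, and each later group was above the one before. At 24 h the equal-median difference was 2.05 ± 0.084 log2 (SE, adjusted p = 9.51e-11, limma, 2 arrays a group), and the per-cell difference was 3.16. ZNF593, which takes part in the maturation of the large ribosomal subunit, read 214 and 193 at 0 h, 272 and 275 at 1 h and 537 and 540 at 24 h. It too stood higher in each later group, and its equal-median difference at 24 h was 1.55 ± 0.072. ZNF639 read 223 and 241, then 338 and 348, then 467 and 486, a rise of 1.18 ± 0.069.

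The other large rises at 24 h were smaller. ZNF664 read 827 and 846 at 0 h, 738 and 813 at 1 h and 1621 and 1639 at 24 h (1.10 ± 0.061). ZNF84, a KRAB gene of a cluster at the end of chromosome 12, read 200 and 212, then 159 and 163, then 383 and 384 (1.04 ± 0.071). In deposited intensity, its mid-Myc arrays were the lowest of the 6 and its high-Myc arrays the highest. Per cell, its difference of 0.035 at 1 h against 0 h was not called. ZNF770 read 538 and 509, then 479 and 471, then 931 and 952 (0.988 ± 0.059). ZNF121 (0.912) and ZNF330 (0.821) completed the 8 largest rises. The highest adjusted p among these 8 was 1.85e-07 (limma), that of ZNF121.

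The largest falls among the members were shared by a pair of neighbours on chromosome 19. ZNF791 read 457 and 463 at 0 h, 486 and 474 at 1 h and 157 and 163 at 24 h. The drop came after 1 h and was -1.38 ± 0.064 log2 at equal medians (adjusted p = 3.05e-10, limma) and -0.243 per cell. ZNF490, the protein-coding gene next to it, read 250 and 245, then 196 and 205, then 87.9 and 89.4 (-1.34 ± 0.077, and -0.282 per cell). With the mean of all its probe sets, ZNF490 was at 0.082 per cell, with an adjusted p of 0.2 (limma). ZNF92 read 1507 and 1512, then 1215 and 1318, then 647 and 597 (-1.14 ± 0.061), while its per-cell difference of -0.053 was not called.

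ZNF429, a KRAB gene of chromosome 19, was already down at 1 h, with 345 and 326 at 0 h, 161 and 192 at 1 h and 155 and 152 at 24 h. Its 24 h difference was -0.984 ± 0.090 at equal medians, and 0.106 per cell, which was not called. ZNF91, a KRAB protein known to repress SVA retrotransposons, read 395 and 390, then 291 and 317, then 179 and 191. Its difference was -0.945 ± 0.076, but 0.0028 with the mean of all its probe sets, which takes in probe sets too dim to be tested and so excluded from the further probe sets counted below. ZNF711, an X-linked gene tied to intellectual disability, read 1242 and 1206, then 1013 and 1024, then 586 and 573 (-0.94 ± 0.053). ZNF117 (-0.971) and ZNF700 (-0.941) made up the 8 largest falls. Per cell, ZNF91 (0.181), ZNF700 (0.199) and ZNF711 (0.17) were called higher, and with 1 ERCC factor per array in place of the curve they were at -0.024, -0.021 and -0.019, not called.

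**Figure D2:**
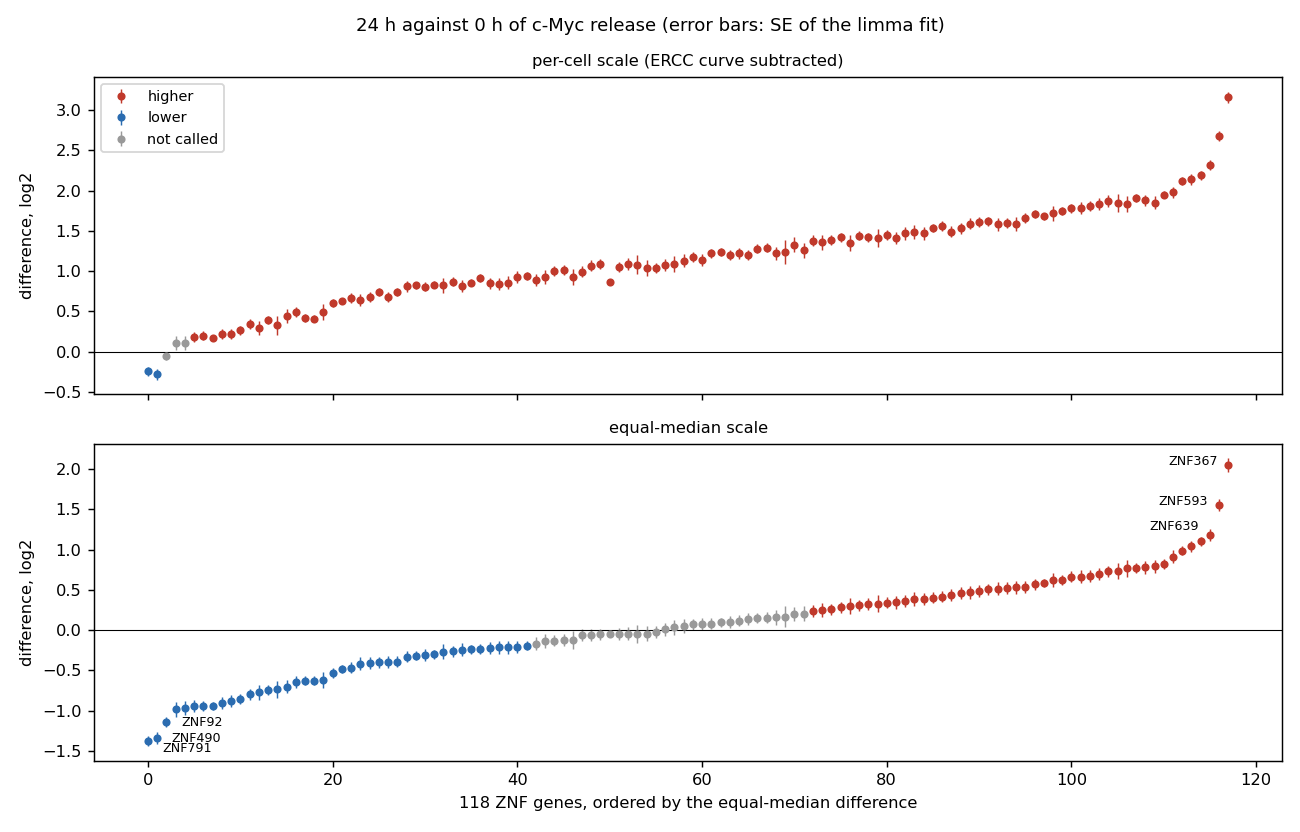
Log2 difference of 24 h against 0 h for each of the 118 ZNF genes, on the per-cell scale (top) and the equal-median scale (bottom), in the order of the equal-median difference. Points are the limma estimates, bars their SE, and colours the calls. The same order of genes lies almost wholly above 0 per cell (113 higher, 2 lower) and is split by 0 at equal medians (46 higher, 42 lower).

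**Figure D3:**
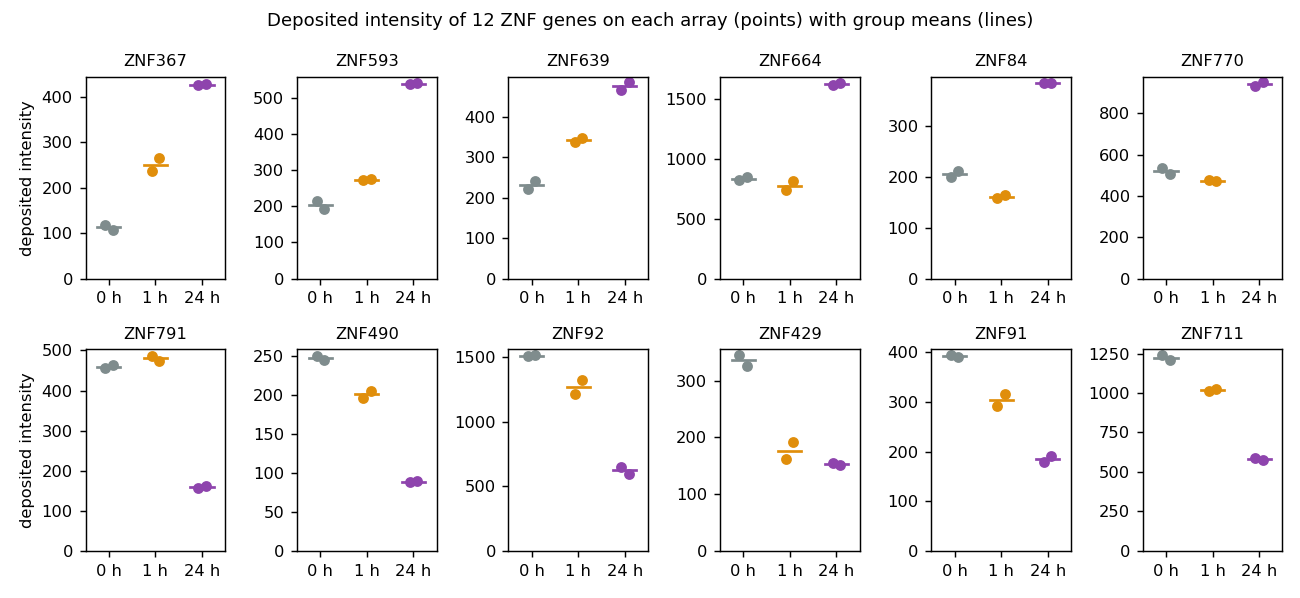
Deposited intensity (vertical, from 0) of 12 ZNF genes on each array at 0, 1 and 24 h of c-Myc release, with points for the 2 arrays of a group and lines for the group means. The top row holds rises and the bottom row falls, with ZNF367 stepping up at 1 h and 24 h and ZNF429 down at 1 h.

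Of the 4 brightest members, 3 were called lower at 24 h at equal medians, and 0 of them per cell. Over all genes 26% were lower at equal medians and 2.47% per cell. Among other genes in the brightest bin, 37% were lower at equal medians. ZNF207, a spindle assembly protein that binds the checkpoint kinase partner BUB3, read 2558 and 2534 at 0 h, 2468 and 2478 at 1 h and 2226 and 2244 at 24 h. Its deposited intensities were lowest at 24 h, but its equal-median difference of -0.049 was not called (adjusted p = 0.342, limma). Per cell it was called higher (0.869). ZNF217, a breast cancer oncogene product that works in CoREST and CtBP repressor complexes, read 1667 and 1693, then 1516 and 1621, then 992 and 981 (-0.629 ± 0.053, and 0.411 per cell, called higher). ZNF655 read 1662 and 1631, then 1365 and 1474, then 992 and 940 (-0.63, and 0.419 per cell, called higher). The fourth was ZNF92, above.

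At 24 h at equal medians, 37.7% of all genes were higher and 26% lower, and 49% and 32.4% of genes of the same brightness. Of the 10 members with RNA, ribosome or spindle roles, 6 were higher there and 3 lower, with a median of 0.50. The higher ones were ZNF593, the nucleolar protein ZNF330 (0.821), the 60S maturation factor ZNF622 (0.673), ZNF706 (0.588), ZNF326 of the DBIRD complex that links RNA polymerase to splicing (0.567) and the double-stranded RNA binder ZNF346 (0.439, with both of its 2 further probe sets of the opposite sign). The lower ones were ZNF318, which controls IgD splicing in B cells (-0.215), ZNF638, a nucleic acid binder that works with the HUSH silencing complex (-0.299), and ZNF106 (-0.86). ZNF106 read 978 and 947 at 0 h, 966 and 946 at 1 h and 458 and 507 at 24 h. ZNF207 is the remaining member.

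Members with chromatin roles were mixed. Over genes of the same brightness, 49% were higher and 32.4% lower at 24 h at equal medians. Of 15 members on the list, 4 were higher and 7 lower (26.7% and 46.7%, beside 37.7% and 26% of all genes). The median of the 15 was -0.047. The higher ones were ZNF281 (0.771), ZNF512B (0.511), the G9a and GLP partner ZNF644 (0.403) and ZNF445, which protects imprints (0.385, but -0.039 with the mean of all its probe sets). The lower ones were led by ZNF217, the SUMO ligase ZNF451 (-0.47) and ZNF274, which recruits SETDB1 (-0.391), followed by ZNF512 (-0.241), ZNF592 (-0.231), ZNF518A (-0.214) and ZNF518B (-0.209). Per cell, all 15 were higher, beside 91% of all genes. The further probe set of ZNF518B and 3 of the 6 of ZNF644 had the opposite sign. Only 3 members were on the list of transposon-binding KRAB genes, with ZNF84 higher, ZNF33A (-0.266) lower and ZNF91 lower.

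At 1 h after release, 20 members were called lower at equal medians, led by ZNF429 and ZNF860. Another 39 were called higher, led by ZNF367. On that scale 39 members were higher (33.1%), 20 lower (16.9%) and 59 not called, with a median of 0.106. Over all genes tested 25.7% were higher and 3.39% lower, and over genes of the same brightness 39% and 3.29%, with a median of 0.146. The members spread more widely than the others (SD 0.30 against 0.22, interquartile range 0.35 against 0.23), while the median SD within groups was 0.064 for members and 0.061 for others. In the dimmer bins, 29.2% and 30.4% of members were lower between 150 and 227 intensity units, against 5.62% and 3.62% of others. In the next bins up, the shares were 12.5% against 3.78%, 4.35% against 3.77% and, in the brightest, 8.33% against 2.36%. Per cell, 84 members were higher (71.2%), 3 lower (2.54%) and 31 not called, beside 62.7% and 0.672% of all genes and 87.7% and 0.581% of genes of the same brightness.

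The count of 20 lower members fell when any 1 array was left out. It was 10 without low-Myc replicate 1, 7 without low-Myc replicate 2, 12 without mid-Myc replicate 1 and 12 without mid-Myc replicate 2. The shares then were 8.47%, 5.93%, 10.2% and 10.2% of members, beside 1.66%, 1.96%, 1.48% and 2.21% of genes of the same brightness. The higher count was 33, 24, 31 and 21. With quantile normalization 18 members were higher and 33 lower, with centring on the tested genes 21 and 29, with the mean of all probe sets 22 and 13, and with no variance trend 30 and 9. The lower shares were 28%, 24.6%, 11% and 7.63%, beside 14.7%, 10.1%, 2.64% and 1.66% of genes of the same brightness. The mid-Myc samples carry numbers apart from those of the other 4, and a separate batch cannot be told apart from the 1 h release.

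Among the members, ZNF429 fell most at 1 h (-0.781 ± 0.090, adjusted p = 4.81e-05, limma), with arrays given above. ZNF860 read 220 and 211 at 0 h, 124 and 128 at 1 h and 211 and 184 at 24 h, so that its mid-Myc arrays stood alone (-0.624 ± 0.082). ZNF226 read 250 and 248, then 163 and 167, then 168 and 175 (-0.445), but was at 0.04 with the mean of all its probe sets. ZNF44 read 228 and 248, then 161 and 156, then 150 and 112 (-0.437). ZNF429, ZNF860 and ZNF226 were also called lower per cell, at -0.544, -0.39 and -0.209. The other 17 were not called per cell, and the 20 lay between -0.544 and 0.036 there. The 3 members of the transposon-binding KRAB list were among the 20, while of all 17 tested genes of that list 4 were lower (23.5%). They were ZNF33A at -0.268, ZNF91 at -0.22 and ZNF84 at -0.203.

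The rises at 1 h were led by ZNF367 (1.29 ± 0.084, adjusted p = 3.29e-07, limma), the one member past 2-fold. Its further probe set had the opposite sign at 1 h and the same sign at 24 h. ZNF709 read 154 and 164 at 0 h, 259 and 231 at 1 h and 125 and 138 at 24 h (0.772 ± 0.084), and its further probe set also had the opposite sign at 1 h. ZNF639 rose by 0.714, with all 3 of its further probe sets in the same direction. ZNF800 read 395 and 367, then 534 and 541, then 376 and 355 (0.647 ± 0.066), with 2 of its 4 further probe sets in the same direction. The deposited intensities of ZNF709 and ZNF800 were highest at 1 h. Per cell, ZNF800 was higher at 24 h than at 1 h (0.34), and the difference of ZNF709 (-0.077) was not called. Among the RNA and ribosome members, ZNF593 (0.579), ZNF622 (0.417), ZNF706 (0.382), ZNF326 (0.314) and ZNF330 (0.181) were higher at 1 h, and ZNF346 (-0.277) and ZNF638 (-0.186) lower.

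Several probe sets read many of these genes, and at 1 h they often differed in sign. Of the 88 members with further probe sets above the filter on dim signal, all had the sign of the one used for 64 at 24 h against 0 h, for 43 at 1 h against 0 h and for 52 at 24 h against 1 h. Among members called lower at 1 h, 14 had further probe sets and 8 of these had a single sign, and among those called higher 16 of 32 did. At 24 h against 0 h the counts were 25 of 32 lower members and 28 of 36 higher ones. Probe sets ending in x_at hold probes that may match other transcripts, which matters in a family of near copies, and they read 19 members. These include ZNF429, ZNF860 and ZNF44, named above for falls at 1 h, and ZNF791 and ZNF91, named for falls at 24 h. At 1 h 7 of these 19 (36.8%) were lower and 4 (21.1%) higher. Of 771 other genes of the same brightness read by x_at probe sets, 3.5% were lower and 38.7% higher. Among the 77 members read by plain at and a_at probe sets, 11 (14.3%) were lower.

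Chromosome 19 holds 40 members and chromosome 7 holds 11. At 24 h the chromosome 19 members split into 13 higher and 16 lower at equal medians, with a median of -0.091, and the 78 on other chromosomes into 33 and 26, with a median of 0.11. The 305 other genes of the same brightness on chromosome 19 split into 140 and 103, with a median of 0.10. At 1 h 17.5% of the members on chromosome 19 and 16.7% of those elsewhere were lower, against 1.64% of the other chromosome 19 genes. Members in ZNF clusters and members standing alone were then set apart by whether an immediate protein-coding neighbour is a ZNF gene. This was so for 52 members, 31 of them on both sides, and not for 65, with 1 member not placed. At 1 h 13 of the 52 (25%) and 6 of the 65 (9.23%) were lower, beside 3.39% of all genes and 3.29% of genes of the same brightness. Among members read by plain at and a_at probe sets the counts were 8 of 33 and 3 of 44. Members with a ZNF neighbour were also dimmer, with a median level of 226 intensity units against 334, and the part of brightness in this split was not tested.

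**Figure D4:**
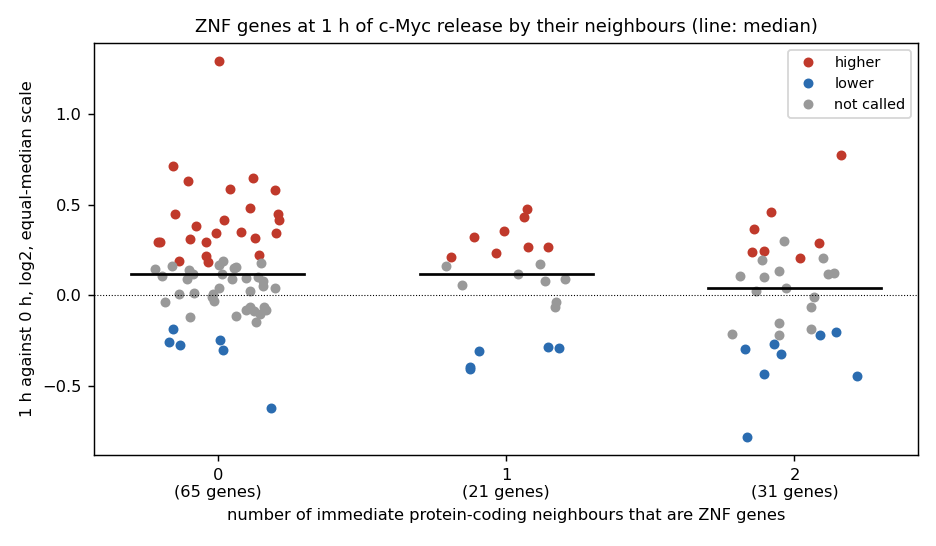
Log2 difference of 1 h against 0 h on the equal-median scale (vertical) for ZNF genes with 0, 1 or 2 ZNF genes among their immediate protein-coding neighbours (65, 21 and 31 genes), coloured by call, with a line at each median. Called falls make up 6 of 65 genes with no ZNF neighbour and 13 of 52 with at least 1, and genes of both calls occur in all columns.

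At 24 h at equal medians, 39% of the members were called higher and 35.6% lower, beside 37.7% and 26% of all genes. Adjacent pairs of other genes were not counted. Among 9 pairs of members that lie next to each other, both genes were called in 8. The direction was opposite in 5 pairs and the same in 3. The 3 were ZNF490 and ZNF791 (-1.34 and -1.38), ZNF136 and ZNF44 (-0.415 and -0.737) and ZNF84 and ZNF140 (1.04 and 0.251). ZNF33A and ZNF37A, next to each other on chromosome 10, differed in sign at 24 h (-0.266 and 0.529) and were both lower at 1 h (-0.268 and -0.324). ZNF226 and ZNF227 differed in sign at both times (-0.398 and 0.329 at 24 h, -0.445 and 0.298 at 1 h). ZNF789 and ZNF394 on chromosome 7 were at 0.489 and -0.907 at 24 h, ZNF766 and ZNF480 at 0.324 and -0.31, and ZNF274 and ZNF544 at -0.391 and 0.385.

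Between 1 h and 24 h, ZNF84 rose most and ZNF791 fell most among the members at equal medians. There were 41 higher (34.7%), 48 lower (40.7%) and 29 not called, with a median of -0.053, beside 33.3% and 30.9% of all genes and 42.3% and 40.2% of genes of the same brightness. Per cell, 105 were higher and 6 lower (3 without mid-Myc replicate 2), beside 81.8% and 6.48% of all genes and 84% and 8.55% of genes of the same brightness. With quantile normalization 39 members were higher and 53 lower, and with centring on the tested genes 38 and 57. The rise of ZNF84 (1.24 ± 0.071) was followed by ZNF146 (1.13), ZNF573 (1.10) and ZNF664 (1.06). ZNF146, a small protein made of fingers alone, read 824 and 909 at 0 h, 552 and 633 at 1 h and 1157 and 1479 at 24 h. ZNF573 read 157 and 157, then 124 and 106, then 243 and 251. In both, the deposited intensities of the mid-Myc arrays were the lowest of the 6. Per cell, their differences at 1 h against 0 h, -0.186 for ZNF146 and -0.073 for ZNF573, were not called. The fall of ZNF791 (-1.59 ± 0.064) was followed by ZNF490 (-1.19), ZNF394 (-1.17) and ZNF700 (-1.06). ZNF394 read 347 and 343, then 374 and 374, then 162 and 173. At least 2-fold changes numbered 4 up and 6 down (3.39% and 5.08%), against 12.1% and 9.04% of genes of the same brightness, and the SD was 0.56 against 0.85.

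KRAB proteins act through a corepressor machinery, whose genes were read from a separate list. Of 30 listed genes 28 were tested, and 17 were higher and 4 lower at 24 h at equal medians, with a median of 0.50, beside 37.7% and 26% of all genes, while all 28 were higher per cell, beside 91% of all genes. UHRF1, which reads hemimethylated DNA for its maintenance methylation, rose by 2.35, the H3K9 methyltransferase SUV39H2 by 2.08, the histone deacetylase HDAC2 by 1.46 and the NuRD subunit MBD3 by 1.23. The 4 lower genes were GATAD2B (-0.538), CHD3 (-0.518), ATF7IP (-0.405) and TASOR (-0.292). TRIM28 read 119 and 115 at 0 h, 140 and 144 at 1 h and 210 and 208 at 24 h (0.976 ± 0.077). It was also higher at 1 h (0.431). SETDB1 read 125 and 119, then 94 and 98.3, then 117 and 112, and its 24 h difference of 0.048 was not called. At 1 h 8 of the 28 (28.6%) were higher and 0 lower, beside 25.7% and 3.39% of all genes, and per cell 0 were lower, beside 0.672%.

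Other zinc finger genes were counted in the same way at 1 h. Of the 233 ZNF genes tested below the level threshold, 39 (16.7%) were higher and 16 (6.87%) lower at equal medians, beside 25.7% and 3.39% of all genes. Of 16 ZBTB genes above the level, which pair zinc fingers with a BTB domain, 9 were higher and 0 lower, beside 39% and 3.29% of genes of the same brightness. Of 11 ZFP, ZSCAN and ZKSCAN genes, 4 were higher and 0 lower. At 24 h the ZBTB genes split into 5 and 5, and the ZFP, ZSCAN and ZKSCAN genes into 5 and 3, beside 49% and 32.4% of genes of the same brightness.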

How the data were processed

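RNA of 6 samples was read on 1-colour Affymetrix arrays. The authors deposited 1 linear intensity per probe set, made with MAS5 according to the submitters' processing notes, and the MAS5 version and scaling target are not given in the sources used. Of 49293 human probe sets 45278 carried 1 symbol, and symbols of 45208 were updated through the gene table. The brightest probe set stood for each gene, and genes above the 40th percentile (33.8 intensity) were tested. Values were taken as log2 and put on the per-cell scale (robust loess, span 0.7, degree 1, through the ERCC probe sets) or the equal-median scale. Tests used limma 3.58.1 in R 4.3.3 with a variance trend, two-sided, over 12198 genes. Genes of the same brightness are all other genes tested within 5 bins of equal member number. Their pooled shares, medians and SDs carry no weights for the members' spread over the bins.

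Named members were the 4 brightest, the 8 largest rises and 8 largest falls at 24 h against 0 h, the 4 and 4 of the other comparisons, those of 3 role lists and those at the threshold. Other single members (ZNF140, ZNF37A, ZNF227, ZNF789, ZNF766, ZNF480, ZNF544) were named after their values were seen. Members, lists and tests were chosen with earlier results of these data known. On simulated data with 12198 genes, 100 were changed by 0.5 log2. At equal medians, 90% of these were recovered at 1 h against 0 h, and 94% at 24 h against 0 h. The simulated noise was normal with an SD set by level alone, and no shift of whole arrays or of ERCC probe sets was simulated. These shares therefore do not measure recovery in the real arrays. The number of arrays limits the precision. Alternatives covered the scaling, filter, level threshold, probe set rule, pseudocount, variance trend, replicate block and each array left out.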

Additional observations from a re-analysis of the deposited data

How the results depend on the processing

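All alternatives were chosen together with the tests. Over the members named by comparison or role list and the named corepressor genes, 4050 values kept their side of the threshold. Another 116 lost the call, 29 gained one and 17 reversed. Values called in neither fit were counted as kept whatever their sign. Settings that change only which genes are members cannot move single-gene values, and they add to the 4050. With the mean of all probe sets, 24 h against 0 h gave 0.0816 per cell for ZNF490, 0.00278 at equal medians for ZNF91 and -0.0392 for ZNF445. At 1 h against 0 h it gave 0.206 per cell and 0.0396 at equal medians for ZNF226, -0.0106 at equal medians for ZNF326 and -0.0448 per cell for ZNF445. At 24 h against 1 h it gave 0.0106 per cell for ZNF490, -0.0212 per cell for ZNF217 and 0.0557 at equal medians for ZNF91. Quantile normalization gave -0.126 for ZNF207, -0.175 for ZNF217 and -0.161 for ZNF512 at 1 h. With 1 ERCC factor per array, ZNF91 was at -0.0241, ZNF700 at -0.0206 and ZNF711 at -0.0192 at 24 h against 0 h, and ZNF91 at -0.029 at 24 h against 1 h. The cause was not tested for any of these.

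Other thresholds change the number of members. With members above 100 intensity there were 184, with a per-cell median of 1.09 at 24 h against 0 h. Per cell, 176, 127 and 159 were higher at 24 h against 0 h, 1 h against 0 h and 24 h against 1 h. Over all genes tested, 91%, 62.7% and 81.8% were higher per cell. With the 50 members above 300 intensity, 24 h against 0 h gave 48 higher and 1 lower per cell (median 0.971). At equal medians it gave 16 higher and 24 lower (32% and 48%, median -0.128), beside 49.2% and 35.1% of genes of the same brightness. The gap to those genes was -0.322. For 1 h against 0 h the 50 gave 43 higher and 0 lower per cell. At equal medians 18 were higher and 3 lower (36% and 6%), beside 45.8% and 2.87%. For 24 h against 1 h they gave 42 higher and 3 lower per cell (median 0.615). At equal medians 13 were higher and 29 lower (26% and 58%, median -0.247), beside 41.7% and 43.2%, with a gap of -0.256. Without s_at and x_at probe sets, 77 members were left, with 74 higher and 1 lower per cell (median 1.17) and 26 lower at equal medians for 24 h against 0 h, 1 lower per cell and 11 lower at equal medians for 1 h against 0 h, and 68 higher per cell, 27 higher and 31 lower at equal medians for 24 h against 1 h. For the 77, the lower shares at equal medians were 33.8%, 14.3% and 40.3%, beside 32.4%, 3.29% and 40.2% of genes of the same brightness. With ZNF followed by digits alone, the per-cell median at 24 h against 0 h was 1.17.

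With the mean of all probe sets, 24 h against 0 h gave 1 lower per cell, medians of 0.94 per cell and -0.00391 at equal medians and a gap of -0.133. At 1 h against 0 h the medians were 0.26 per cell and 0.0642 at equal medians, with 22 higher and 13 lower. At 24 h against 1 h the per-cell median was 0.665 and the gap -0.0575. A pseudocount of 16 gave per-cell medians of 1.04 at 24 h against 0 h and 0.75 at 24 h against 1 h, and 0.0679 at equal medians at 1 h. Quantile normalization gave equal-median medians of -0.122, -0.0487 and -0.106 for 24 h against 0 h, 1 h against 0 h and 24 h against 1 h, with 18 higher and 33 lower at 1 h. Centring on the tested genes gave -0.141, -0.00889 and -0.142, with 21 higher at 1 h. With 1 ERCC factor per array the per-cell medians were 0.983 at 24 h against 0 h and 0.642 at 24 h against 1 h. A loess span of 0.4 gave 1.19 and 0.87, with 3 lower at 24 h against 1 h. Without a variance trend, 9 members were lower at 1 h.

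Leaving out each array in turn gave, at 1 h against 0 h, 21 to 33 higher and 7 to 12 lower at equal medians, medians of 0.0697 to 0.146 there and of 0.32 to 0.368 per cell. At 24 h against 0 h the per-cell median ran from 1.12 to 1.18 and the gap from -0.123 to -0.0792. At 24 h against 1 h, 3 to 5 were lower per cell, the equal-median median ran from -0.0974 to -0.034 and the gap from -0.113 to -0.0727. The lone array of a group is there assumed to vary like the other groups. Same-numbered arrays shared only a number, with correlations of their deviations of 0.0022, -0.0034 and -0.0022, and the replicate block gave 47 higher and 42 lower at 24 h against 0 h, 40 and 20 at 1 h against 0 h, and 42 and 49 at 24 h against 1 h. Signal limits the dimmer values: in 52 members the lowest group mean was below 194 intensity units, the level of the second brightest of 23 background probe sets, the brightest being at 694.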
